A study of Mus musculus with 38 samples.

Results

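Described here are 10 genes of the neutrophil lineage in the transplanted MMTV-PyMT mammary tumors, out of 28786 gene names on the array. They were taken by name from the array files, and 12 probes matched, with Cxcr2 filed under its older symbol Il8rb and Elane under Ela2. S100a8, S100a9, Csf3r and Cxcr2 are classed here as mature neutrophil genes, and Ltf, Ngp and Camp as secondary granule genes. Mpo and Elane are classed with the primary granules that form first. The cells that gave the signal of each gene were not tested. Plac8 is kept apart because other leukocytes and epithelia also express it.

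The tumors came from hyperplasias of 3-week-old MMTV-PyMT;actin-GFP donors, grafted into cleared fat pads of female FVB/n hosts that were also 3 weeks old, and GFP-positive cells were sorted from all groups. The MMTV promoter drives the PyMT oncogene in mammary epithelium, while the actin promoter drives GFP in any cell of donor origin, so the sort gate is not specific to epithelium. The hosts were wild-type mice without the GFP transgene. Whether the sorted samples held host cells was not tested. The progression experiment held 5 adenomas (5-week outgrowths), 6 carcinomas (18-week outgrowths), 6 disseminated cell samples and 5 metastases. Disseminated cells came from the lungs of mice with 18-week tumors, and the lungs of several mice were pooled for a sample. Metastases were collected from lungs at the first respiratory distress after the 18-week primary tumor had been removed. The chemotherapy experiment held 6 untreated tumors, 6 residual tumors taken 10 days after dose 1 of docetaxel, doxorubicin and cyclophosphamide, and 4 relapsed tumors taken 10 days after dose 4. Treatment began 8 weeks after transplantation, and the labels call these groups control, regressed and resistant.

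Each value is a log2 ratio of the sample (Cy5) to a common mouse reference RNA (Cy3) on a two-color array, and a difference between group means is called a log2 change. A gene counts as called where its adjusted p lies below 0.05 and its change reaches 2-fold, or 1 on the log2 scale. The sample channel was well above background at group medians of 61.6 to 74.6% of the spots in progression and 54.4 to 58.6% in chemotherapy. Neither the labels nor the methods say that every array of a group came from a separate animal, so p-values measure the spread between these samples. Carcinoma replicate 6 and disseminated replicate 6 stood apart from their groups, with median correlations to the other arrays of the group of 0.76 and 0.71. Several results, not all, are given with and without them. Adenomas and disseminated cells shared slides and a scan day, as did carcinomas and metastases. Any other progression comparison crossed slides and scan days, and these cannot be told apart from the groups.

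Neutrophils make their granule proteins in a fixed order in the bone marrow. Primary granules with myeloperoxidase and elastase are filled in promyelocytes, and secondary granules with lactoferrin and cathelicidin are filled later in myelocytes. Mature cells then leave the marrow under the control of G-CSF and the chemokine receptor Cxcr2, and they carry large amounts of the S100a8 and S100a9 proteins. The transcription factors C/EBP and PU.1 drive many of these genes. In the lung, neutrophils are retained in the small vessels also without infection.

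To show the regulatory sequence of genes that moved together, the 250 bases upstream of the RefSeq start are given for 5 genes called higher in disseminated cells than in adenomas, and for Ltf, which was not called. All 10 genes were found in the RefSeq table of build GRCm38.p6. The bases read 5′ to 3′ on the strand of the gene, and capitals mark TTGCNNAA, a core of C/EBP sites, and GAGGAA, a core of PU.1 sites, on either strand.
S100a9, chr3:90695722-90695971, minus strand: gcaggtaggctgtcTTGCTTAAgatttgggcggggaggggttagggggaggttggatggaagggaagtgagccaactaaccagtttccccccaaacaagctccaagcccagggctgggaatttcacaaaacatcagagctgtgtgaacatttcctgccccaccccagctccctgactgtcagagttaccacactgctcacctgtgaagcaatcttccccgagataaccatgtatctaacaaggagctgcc
Csf3r, chr4:126024409-126024658, plus strand, upstream of another listed start of the gene: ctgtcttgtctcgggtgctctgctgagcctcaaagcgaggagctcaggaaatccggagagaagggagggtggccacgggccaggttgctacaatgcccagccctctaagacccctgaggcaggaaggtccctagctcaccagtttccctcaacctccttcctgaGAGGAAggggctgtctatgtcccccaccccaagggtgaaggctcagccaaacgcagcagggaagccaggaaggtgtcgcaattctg
Cxcr2, chr1:74153744-74153993, plus strand: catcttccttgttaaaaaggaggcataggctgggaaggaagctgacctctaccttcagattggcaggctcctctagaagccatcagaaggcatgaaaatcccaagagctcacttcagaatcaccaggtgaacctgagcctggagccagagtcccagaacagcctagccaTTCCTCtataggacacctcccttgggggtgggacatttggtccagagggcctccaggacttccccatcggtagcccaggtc
Ngp, chr9:110419558-110419807, plus strand: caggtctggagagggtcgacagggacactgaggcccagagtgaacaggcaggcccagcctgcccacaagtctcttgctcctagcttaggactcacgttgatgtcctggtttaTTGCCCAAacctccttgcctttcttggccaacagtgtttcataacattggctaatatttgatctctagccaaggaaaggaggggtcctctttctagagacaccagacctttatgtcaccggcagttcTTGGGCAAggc
Camp, chr9:109849457-109849706, minus strand: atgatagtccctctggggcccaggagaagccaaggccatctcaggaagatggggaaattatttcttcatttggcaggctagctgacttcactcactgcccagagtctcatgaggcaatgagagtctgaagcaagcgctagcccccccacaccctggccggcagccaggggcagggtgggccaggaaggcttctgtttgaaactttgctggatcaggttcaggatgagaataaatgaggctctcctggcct
Ltf, chr9:111019042-111019291, plus strand: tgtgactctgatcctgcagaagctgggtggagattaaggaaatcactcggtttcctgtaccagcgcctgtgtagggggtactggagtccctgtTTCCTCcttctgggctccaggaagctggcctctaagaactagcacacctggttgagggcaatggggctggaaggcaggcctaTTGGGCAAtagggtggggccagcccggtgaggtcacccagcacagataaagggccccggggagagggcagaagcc

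The letters TTGCNNAA were found 2 times for Ngp and 1 time each for S100a9 and Ltf, and GAGGAA 1 time each for Csf3r, Cxcr2 and Ltf. The Camp window held neither. Among the windows not printed, GAGGAA was found 2 times each for S100a8, Mpo and Plac8 and 1 time for Elane, and TTGCNNAA was not found. Of 32851 mouse promoters of the same length, 9.56% held TTGCNNAA, 23.3% held GAGGAA and 2.07% held both. A match is a description of the sequence and not a site shown to be bound.

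In disseminated cells, 3 of 4 genes of the mature neutrophil and 2 of 3 genes of the secondary granules were called above their levels in adenomas, and 0 of 2 primary granule genes were. Whether these classes differ was not tested. Of the 10 genes, 6 were called higher and 0 lower, against 4.65% of all genes called higher, 5.82% lower and 10.5% in either direction. S100a9, Csf3r, Cxcr2, Ngp, Camp and Plac8 rose, and S100a8, Ltf, Mpo and Elane did not pass the test. The median log2 change was 3.64 for the 4 mature neutrophil genes, 2.71 for the 3 secondary granule genes and 0.39 for the 2 primary granule genes, beside -0.01 over all genes. In bulk RNA, a change in the number of cells of a type and a change of RNA per cell cannot be told apart.

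**Figure D1:**
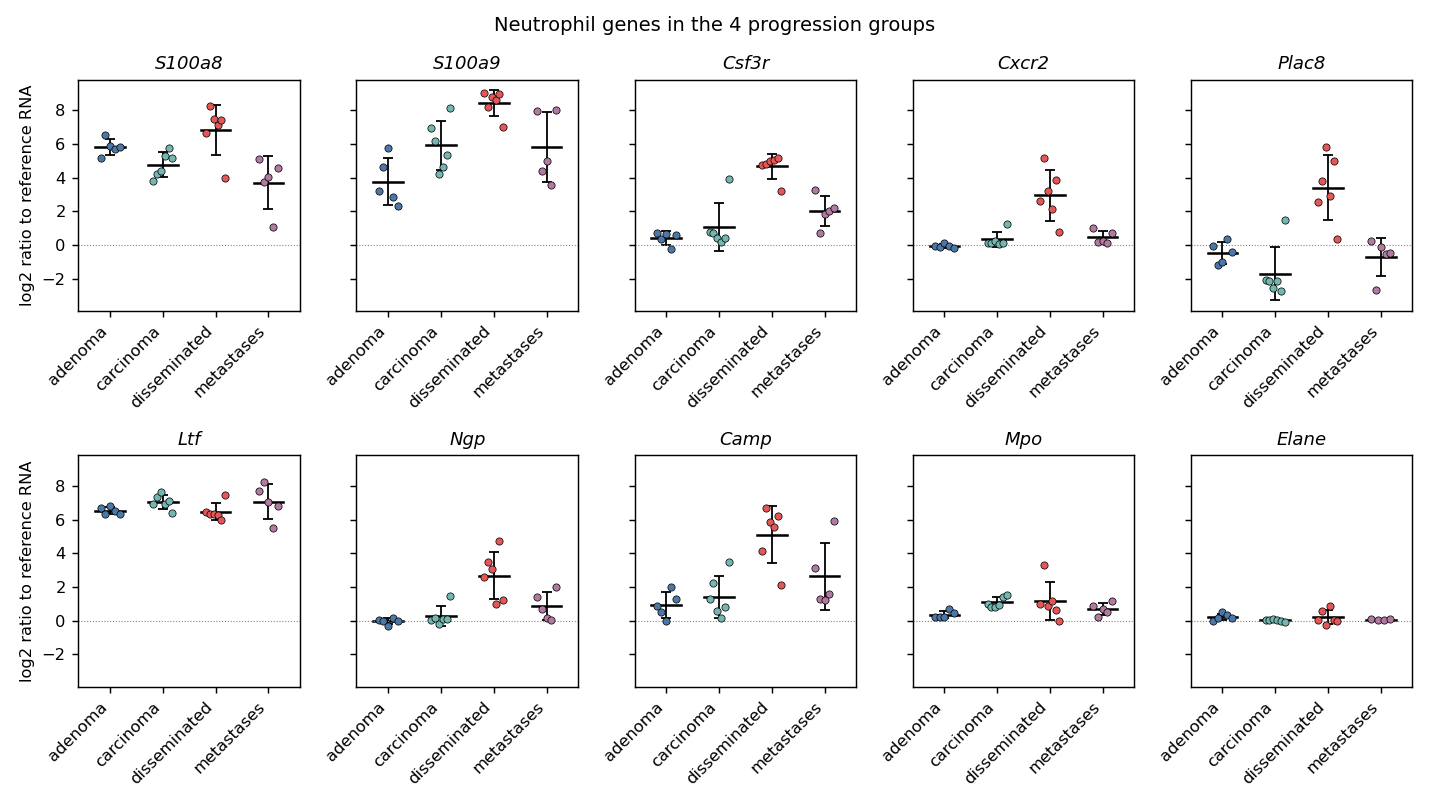
Log2 ratio to the reference RNA (y axis) of each of the 10 genes in the 4 progression groups, with 1 point per sample and bars for the mean and SD. Disseminated cells lie above every adenoma for S100a9, Csf3r, Cxcr2, Ngp and Camp, and the point of carcinoma replicate 6 lies above the other carcinomas for Csf3r, Cxcr2, Ngp, Camp and Plac8.

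S100a8 and S100a9 encode the subunits of calprotectin, a calcium- and zinc-binding complex of the neutrophil cytosol. The S100a9 probe lies on chromosome 3 at 90822865 to 90822924 (build mm7, minus strand). Its log2 ratio was 3.21, 4.61, 5.78, 2.88 and 2.33 in the 5 adenomas. In carcinomas it ran from 4.23 to 8.16 with a median of 5.77, and in disseminated cells from 7.01 to 9.02 with a median of 8.72. All 6 samples of disseminated cells were above all adenomas, while carcinoma replicate 6 reached into their range. In metastases the ratio was 7.99, 4.42, 4.99, 3.59 and 8.03, so 2 samples lay near the highest carcinoma and the other 3 within the range of adenomas. Disseminated cells exceeded adenomas by a log2 change of 4.68 (standard error 0.851, adjusted p = 0.00148, limma) and carcinomas by 2.52 (adjusted p = 0.0266). With single samples left out in turn, the change against carcinomas stayed called in 6 of 12 cases.

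The S100a8 probe lies on the same chromosome at 90800058 to 90800117. The log2 ratio of S100a8 was 5.14, 6.54, 5.89, 5.70 and 5.85 in adenomas and 5.08, 3.75, 4.03, 1.06 and 4.58 in metastases. All metastases were below all adenomas. It ran from 3.83 to 5.74 with a median of 4.79 in carcinomas and from 3.99 to 8.24 with a median of 7.28 in disseminated cells, where replicate 6 was the lowest sample. Both S100a8 and S100a9 were well above background in 5 of 5 adenomas, where Csf3r was so in 2 of 5 and Ngp in 0 of 5. Which cells gave the S100a8 signal of adenomas was not tested. The log2 change of S100a8 from adenomas to disseminated cells was 0.99 with a 95% interval from -0.41 to 2.40 (adjusted p = 0.317). Without disseminated replicate 6 this change was 1.56 (limma, adjusted p = 0.0537), close to the threshold. Against carcinomas S100a8 rose by 2.04 (adjusted p = 0.0237), a call kept in 7 of 12 cases with a sample left out.

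The partner genes moved by unequal amounts. S100a9 minus S100a8 was -1.93, -1.93, -0.11, -2.82 and -3.51 in the 5 adenomas, and 2.91, 0.66, 0.96, 2.53 and 3.45 in the 5 metastases. It ran from -0.67 to 3.13 in carcinomas and from -0.05 to 3.03 in disseminated cells. Samples of disseminated cells and metastases were all above the adenomas. Since the ratios come from different probes, only the change of this difference between groups is read. The change was 3.69 from adenomas to disseminated cells (exact two-sided permutation test, p = 0.00216, adjusted p = 0.0130 over 6 comparisons), 4.16 to metastases (exact permutation p = 0.00794, adjusted p = 0.0238) and 3.21 to carcinomas (exact permutation p = 0.0195, adjusted p = 0.0390). The comparisons share the adenomas, and the difference was chosen after its values had been seen, so these p-values are not independent evidence. With a normexp offset of 0 the adjusted p was 0.139 for each of them, and with single samples left out the carcinoma comparison was kept in 4 of 11 cases. The other 3 comparisons gave adjusted p from 0.474 to 0.554.

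**Figure D2:**
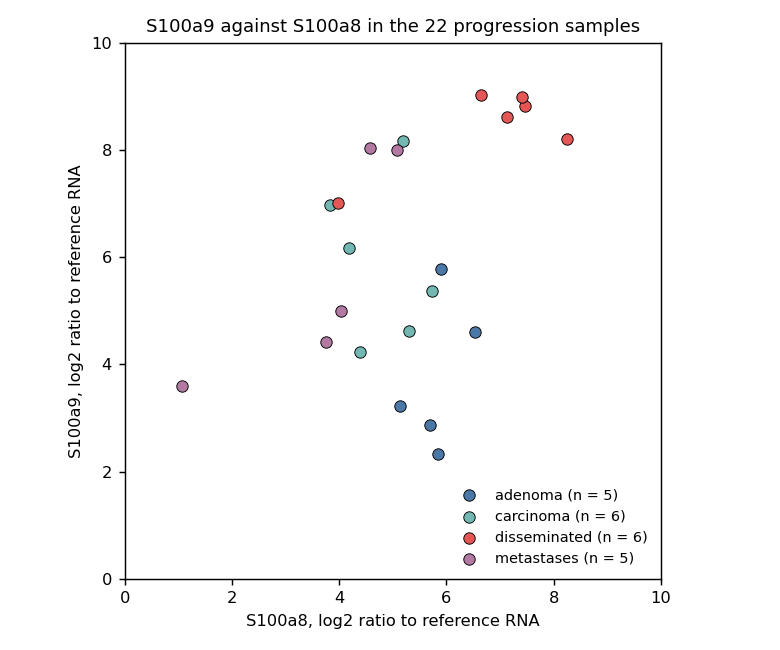
Log2 ratio of S100a9 (y axis) against that of S100a8 (x axis) in the 22 progression samples, 1 point per sample, colored by group. Adenomas combine S100a8 ratios of 5.14 to 6.54 with S100a9 ratios of 2.33 to 5.78, and disseminated cells other than replicate 6 lie at the upper right.

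Csf3r encodes the receptor of G-CSF, the main growth factor of the neutrophil lineage. Its probe lies on chromosome 4 at 125488697 to 125488756. The log2 ratio of Csf3r was 0.70, 0.33, 0.65, -0.27 and 0.60 in adenomas, where 2 of 5 samples were well above background. It ran from 0.16 to 3.92 with a median of 0.56 in carcinomas and from 3.22 to 5.15 with a median of 4.93 in disseminated cells. In metastases it was 3.27, 0.72, 1.85, 1.99 and 2.21. Disseminated cells and metastases were all above the adenomas, and carcinoma replicate 6 was the only carcinoma above 0.74. Csf3r rose in disseminated cells by 4.27 against adenomas (standard error 0.556, adjusted p = 0.000118) and by 3.61 against carcinomas (adjusted p = 0.000136). Without carcinoma replicate 6 the latter was 4.18 (adjusted p = 9.84e-07).

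Cxcr2 encodes the receptor for the chemokines that draw neutrophils into tissue. The brighter of its 2 probes, on chromosome 1 at 74402562 to 74402621, was well above background in 0 of 5 adenomas, 1 of 6 carcinomas, 6 of 6 samples of disseminated cells and 2 of 5 samples of metastases. Its log2 ratio was -0.05, -0.11, 0.13, -0.09 and -0.19 in adenomas. In disseminated cells it ran from 0.77 to 5.18 with a median of 2.90, and in carcinomas from 0.06 to 1.26 with a median of 0.14. In metastases it was 1.01, 0.20, 0.25, 0.14 and 0.73. On this probe, disseminated cells were all above the adenomas, and the sample with 0.77 was replicate 6. The log2 change of its ratio from adenomas to disseminated cells was 3.02 (95% interval 1.98 to 4.05, adjusted p = 0.000758), or 8.09-fold. Because no adenoma was well above background, the mean Cxcr2 signal of disseminated cells was also set against the detection limit of the adenoma arrays. It lay 9.67-fold above that limit. Such a figure sets the mean sample signal of the brighter group against the lowest signals detected on the arrays of the dimmer one. These signals were taken from the normalized ratio and average of both channels. The figure has no interval and exceeds the fitted fold, so it is not a lower limit of the change. It is also open to dye bias because no dyes were swapped. Against carcinomas, of which only replicate 6 was measured above background, the fitted log2 change of Cxcr2 was 2.63 (adjusted p = 0.000669), a size that rests on values near the detection limit. The other probe, at 74401999 to 74402058, rose by 3.17 in both comparisons (adjusted p = 0.00135 and 0.000458). On that probe the groups overlapped, since adenoma replicate 1 was well above background with a log2 ratio of 1.96 and the lowest sample of disseminated cells had 1.23.

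The secondary granule genes did not move together. Ngp encodes a cathelin-like granule protein, and its probe spans 549 bases on chromosome 9 from 110119702 to 110120250. Its log2 ratio was 0.03, -0.02, -0.31, 0.15 and -0.02 in adenomas, of which 0 of 5 were well above background. In carcinomas it ran from -0.18 to 1.45 with a median of 0.10, and in disseminated cells from 0.97 to 4.71 with a median of 2.82. In metastases it was 1.41, 0.69, 0.14, 0.06 and 2.01, with 3 of 5 samples well above background. All disseminated cells were above all adenomas, and 4 of 6 were above all carcinomas. The log2 change of the Ngp ratio from adenomas to disseminated cells was 2.71 (95% interval 1.62 to 3.80, adjusted p = 0.00208), or 6.55-fold. Mean Ngp signal in disseminated cells lay 9.55-fold above the detection limit of the adenoma arrays, which is likewise not a lower limit of the change. Against carcinomas the fitted log2 change was 2.40 (adjusted p = 0.00183). Of the carcinomas 1 of 6 was well above background for Ngp, so the size of that change rests on values near the detection limit.

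Camp encodes the cathelicidin from which an antimicrobial peptide is cut, and its probe lies on chromosome 9 at 109544107 to 109544166. Camp ratios on the log2 scale were 0.86, 0.54, -0.03, 2.00 and 1.26 in adenomas, and in carcinomas it ran from 0.15 to 3.49 with a median of 1.03. It ran from 2.13 to 6.70 with a median of 5.73 in disseminated cells, all above the adenomas. In metastases it was 3.14, 1.27, 1.23, 1.60 and 5.94, so 1 sample was above 4 of 6 samples of disseminated cells. Camp rose in disseminated cells by 4.18 against adenomas (standard error 0.867, adjusted p = 0.00320) and by 3.69 against carcinomas (adjusted p = 0.00307).

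Ltf encodes lactoferrin, an iron-binding protein of secondary granules that mammary epithelium also secretes. Its brighter probe lies on chromosome 9 at 110738071 to 110738130. Its log2 ratio was 6.70, 6.32, 6.83, 6.53 and 6.36 in adenomas and 7.73, 8.25, 7.08, 5.53 and 6.83 in metastases. It ran from 6.38 to 7.63 with a median of 7.02 in carcinomas and from 5.99 to 7.47 with a median of 6.34 in disseminated cells. Every sample was thus far above the reference, and all groups overlapped. The log2 change of Ltf from adenomas to disseminated cells was -0.07 with a 95% interval from -0.80 to 0.67, while Ngp and Camp, from the same granule, had intervals from 1.62 to 3.80 and from 2.37 to 5.99. The other Ltf probe, which spans 3051 bases, gave group means of 6.80, 6.17, 5.95 and 6.62 in adenomas, carcinomas, disseminated cells and metastases, and was called in 0 of the 6 comparisons. The lowest Ltf and the lowest S100a8 ratio among metastases both came from replicate 4, in which the mean log2 ratio of 8 luminal mammary genes was 0.31, against 3.73 to 5.09 in the other metastases.

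Mpo and Elane encode the peroxidase and the serine protease of the primary granules. Mpo had log2 ratios of 0.24, 0.20, 0.19, 0.71 and 0.46 in adenomas and of 0.90, 0.21, 0.70, 0.50 and 1.14 in metastases. It ran from 0.82 to 1.51 with a median of 0.98 in carcinomas and from -0.02 to 3.31 with a median of 0.92 in disseminated cells. Disseminated replicate 2 alone exceeded 1.51. Mpo was called in 0 of the 6 comparisons. The log2 change of Mpo to disseminated cells was 0.79 from adenomas (95% interval 0.01 to 1.58, adjusted p = 0.143), and without disseminated replicate 6 it was 1.03 (adjusted p = 0.0449) and passed. Elane was well above background in 0 of 5 adenomas, 0 of 6 carcinomas, 2 of 6 samples of disseminated cells and 1 of 5 samples of metastases. Its reference channel was so on 0 of 5, 2 of 6, 1 of 6 and 1 of 5 arrays. Most of its ratios thus rest on 2 undetected signals and do not limit the Elane level. The log2 ratio of Elane stayed between -0.28 and 0.89 in all groups, with 1 flagged spot in metastases left out (n = 4 there).

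Plac8 encodes a small cysteine-rich protein. Its probe lies on chromosome 5 at 99768632 to 99768691. Plac8 had log2 ratios of -0.08, -1.19, -1.03, 0.36 and -0.40 in adenomas, and it ran from -2.74 to 1.50 with a median of -2.15 in carcinomas. In disseminated cells it ran from 0.33 to 5.80 with a median of 3.36, and in metastases it was 0.24, -2.69, -0.11, -0.52 and -0.47. Carcinoma replicate 6 was the only carcinoma above -2.11. Plac8 rose in disseminated cells by 3.87 against adenomas (adjusted p = 0.00432), with 5 of 6 samples above all adenomas, and by 5.10 against carcinomas (adjusted p = 0.000247). Without carcinoma replicate 6 the latter was 5.74 (adjusted p = 1.99e-05).

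Against carcinomas, 7 of the 10 genes were called higher in disseminated cells and 0 lower, against 5.5% of all genes called higher, 6.07% lower and 11.6% in either direction. They were the 6 named for adenomas and S100a8, and without carcinoma replicate 6 the same genes were called. Ltf changed by -0.57 (adjusted p = 0.225), Mpo by 0.07 and Elane by 0.18. Of the 7 genes, none separated the groups completely, since carcinoma replicate 6 or disseminated replicate 6 reached into the other group.

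**Figure D3:**
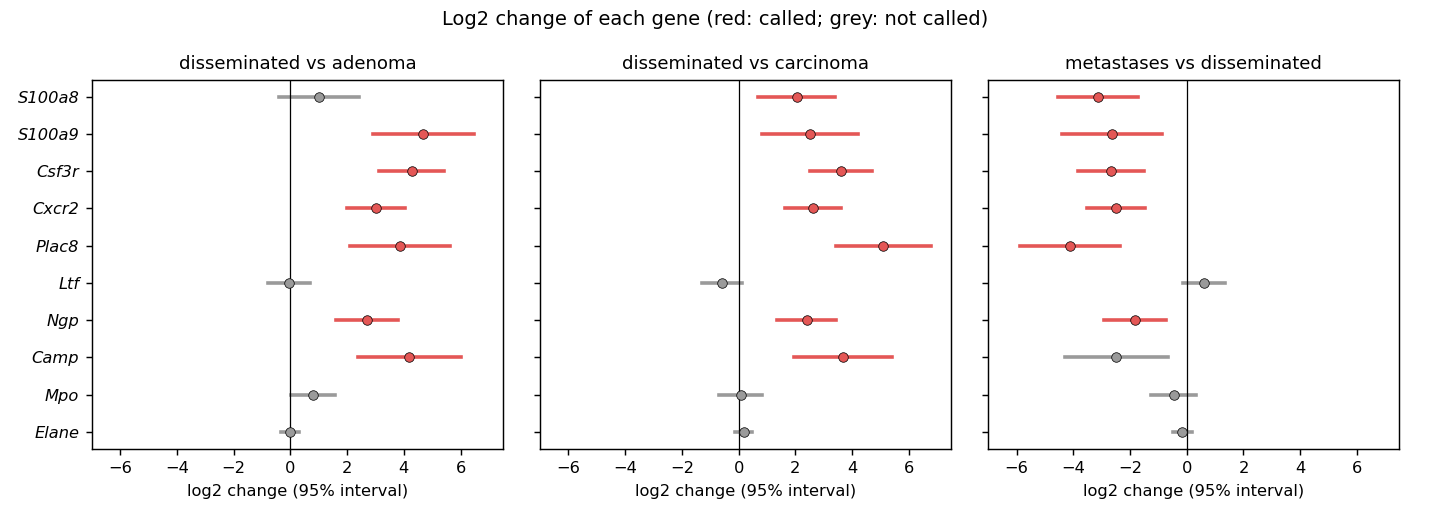
Log2 change (x axis, points) with 95% interval (lines) of each gene in 3 comparisons of disseminated cells, with called genes in red. Ltf, Mpo and Elane have intervals that include 0 in all 3 panels, other than that of Mpo against adenomas, which starts at 0.01, and Plac8 has the largest change in the comparisons with carcinomas and metastases.

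Metastases were lower than disseminated cells at 6 of the 10 genes and higher at 0, against 3.69% of all genes called lower, 3.43% higher and 7.12% in either direction. Plac8 fell by 4.11 on the log2 scale (adjusted p = 0.00350), with all metastases below all disseminated cells. S100a8 fell by 3.11 (adjusted p = 0.00496), Csf3r by 2.66 (adjusted p = 0.00388), S100a9 by 2.64 (adjusted p = 0.0455), Cxcr2 by 2.49 (adjusted p = 0.00281) and Ngp by 1.81 (adjusted p = 0.0266). Camp changed by -2.48 and did not pass (adjusted p = 0.0649). It passed without disseminated replicate 6 (-3.07, adjusted p = 0.00958) or metastases replicate 5 (-3.30, adjusted p = 0.0105), and under 3 of 14 alternatives of processing. Metastases replicate 5 had a Camp ratio of 5.94 and an S100a9 ratio of 8.03, within the range of disseminated cells. These calls rest on a spread estimated over all 4 groups: a limma fit of metastases and disseminated cells alone called 2 of the 10 genes and 2.47% of all genes, and an unmoderated test of that pair called Csf3r and 0.566% of all genes. With single samples left out, the S100a9 call was kept in 3 of 11 cases and the Ngp call in 6 of 11. From the signals as processed by the scanner software, the Csf3r change was -0.12 (adjusted p = 0.947). Ltf had a log2 change of 0.60 (adjusted p = 0.292).

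Against adenomas, metastases had 1 gene called higher, Csf3r by 1.61 (adjusted p = 0.0439), and 1 called lower, S100a8, which fell by 2.12 (adjusted p = 0.0294). This compares with 6.09% of all genes called higher, 8.47% lower and 14.6% in either direction. S100a9 changed by 2.04 and did not pass (adjusted p = 0.0922), but it was called under 6 of 14 alternatives of processing, with changes from 2.25 to 3.36. The S100a8 call was lost with Aquantile or no normalization between arrays (adjusted p = 0.109 in both). With a sample left out, the Csf3r call was kept in 1 of 10 cases and the S100a8 call in 7 of 10. Without metastases replicate 4, whose S100a8 ratio was 1.06, the S100a8 change was -1.46 (adjusted p = 0.0937). Between metastases and carcinomas, which shared slides, 0 of the 10 genes were called by limma and 0 had an unadjusted p below 0.05, where 10.1% of all genes were called, 4.75% higher and 5.3% lower. Without carcinoma replicate 6, Csf3r was called higher in metastases by 1.52 (adjusted p = 0.00618). Within the 3 slides the Csf3r difference between metastases and carcinomas was 1.61, 2.04 and -1.44, and the slide with the negative value held carcinoma replicate 6.

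Between carcinomas and adenomas 0 of the 10 genes were called by limma, where 3.3% of all genes were called, 1.15% higher and 2.14% lower. At an unadjusted p below 0.05 there was 1 gene. That gene was S100a9, with a log2 change of 2.16 (95% interval 0.38 to 3.93, adjusted p = 0.105). Without carcinoma replicate 6 the S100a9 change was 1.71 (adjusted p = 0.195). S100a9 was called in this comparison under 5 of the alternatives of processing, with changes from 2.36 to 3.50. Mpo was not called, with a change of 0.73 (adjusted p = 0.219), although all 6 carcinomas lay above all 5 adenomas. Over 14 alternatives of processing its adjusted p ran from 0.0124 to 0.356, and Mpo was called in 0 of them.

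Within the 3 slides that held both groups, the difference between disseminated cells and adenomas was 3.76, 4.62 and 4.29 for Csf3r, 4.97, 5.43 and 2.63 for S100a9, and 1.74, 3.68 and 3.52 for Cxcr2. It was 1.83, 3.90 and 2.54 for Ngp, 1.71, 5.16 and 6.16 for Camp, and 1.30, 6.19 and 4.39 for Plac8. For these 6 genes the difference was positive on every slide. For S100a8 it was -0.11, 1.25 and 1.80.

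The reference channel moved together with some of these values although it held the same RNA on each array. Its S100a9 signal had a median of 54.9 scanner units in adenomas and 267 in disseminated cells, and its Csf3r signal a median of 13.2 in adenomas and 257 in disseminated cells. The S100a9 sample signals had medians of 1844 and 391214 in these groups, and those of Csf3r 49.8 and 27471. The sample channel alone was taken after a normalization that used both channels, so it is not free of the reference. With this alternative, chosen after seeing the data, the same 6 genes were called in disseminated cells against adenomas and the same 7 against carcinomas. The log2 change against adenomas was then 6.86 for Csf3r and 7.28 for S100a9. The part of the reference channel in the ratios was not tested.

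Over the 22 progression arrays, which share the reference and the groups, Csf3r, Cxcr2, Ngp, Camp and Plac8 correlated with each other at Pearson's r from 0.83 to 0.91. S100a8 correlated with S100a9 at 0.45 and with Ltf at -0.28, and Elane with Mpo at 0.28. The 5 other genes most like Ngp among 22661 compared were 9830134C10Rik (r = 0.937), Mrgpra2b (0.921), Ifitm6 (0.911), Il1f9 (0.904) and Nfe2 (0.903). The 5 most like S100a8 were Cnppd1 (r = 0.849), Atf7ip (0.846), Cstdc6 (0.843), Dedd2 (0.842) and Tbx6 (0.841). These correlations describe the arrays and were not tested.

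Other genes of the mature neutrophil were mostly higher in disseminated cells too. Of a list of 25, 23 were measured, and 19 were called higher and 0 lower in disseminated cells than in adenomas, with a median log2 change of 3.93. Over all genes, 4.65% were called higher and 5.82% lower. Clec4d and Clec4e, C-type lectin receptors of myeloid cells, rose by 7.39 and 6.89, and Fpr2, a receptor for formylated peptides, by 6.69 (adjusted p = 0.000337, 0.00136 and 1.54e-05). G0s2, Lrg1, Padi4 and Stfa3 did not pass. Against carcinomas 18 were called higher and 1 lower, beside 5.5% of all genes called higher and 6.07% lower. The lower one was Lrg1, which fell by 1.19. In metastases 9 were called lower than in disseminated cells and 0 higher, beside 3.69% of all genes called lower and 3.43% higher. Among the 9 were Stfa2l1 and Stfa2, cysteine protease inhibitors of the stefin family, with log2 changes of -4.52 and -3.20, and Retnlg with -3.24. Against adenomas, metastases had 12 genes of this list called higher and 1 lower, G0s2, beside 6.09% of all genes called higher and 8.47% lower. Metastases had 5 of the 23 called higher than carcinomas and 2 lower, beside 4.75% of all genes called higher and 5.3% lower. In that comparison the median log2 change was 1.16, and 13 of the 23 had an unadjusted p below 0.05 (limma).

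Of 12 other granule and precursor genes, 10 were measured, and 2 of these were called higher and 0 lower in disseminated cells than in adenomas, beside the 4.65% of all genes called higher. Their median log2 change was 0.29. They were named after their values were seen: Mmp8, the neutrophil collagenase, rose by 4.01 (adjusted p = 7e-05) and Serpinb1a, an inhibitor of neutrophil serine proteases, by 2.53 (adjusted p = 0.00538). Against carcinomas 3 were called higher and 1 lower, with Gfi1, a transcription factor of the lineage, as the third and Lcn2, which epithelia also express, falling by 1.37. Over all genes, 5.5% were called higher and 6.07% lower against carcinomas. The primary granule proteases Ctsg and Prtn3 had log2 changes of 0.80 and -0.33 against adenomas, and Fcnb and Ms4a3 of 0.25 and 0.33. None of these 4 was called, although the adjusted p of Fcnb was 0.0296, since its change was below 2-fold.

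Ligands of the receptors rose in part. Of 6 genes, 4 were called higher in disseminated cells than in adenomas and 1 lower, beside 4.65% of all genes called higher and 5.82% lower. Cxcl3, Cxcl2, Ppbp and Cxcl1, all ligands of Cxcr2, rose by 5.93, 4.58, 3.47 and 2.44, while Csf3, which encodes G-CSF itself, fell by 1.47 (adjusted p = 0.0420). In carcinomas Cxcl1 and Cxcl2 were called higher than in adenomas, by 3.12 and 2.21. Metastases had 4 ligands called higher than in adenomas and 0 lower, beside 6.09% of all genes called higher and 8.47% lower. The 6 genes of the phagocyte NADPH oxidase were all called higher in disseminated cells than in adenomas and carcinomas, with medians of 4.40 and 4.12. Over all genes, 4.65 and 5.5% were called higher. The genes named here beyond the rule for named genes were chosen after their values were seen.

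**Figure D4:**
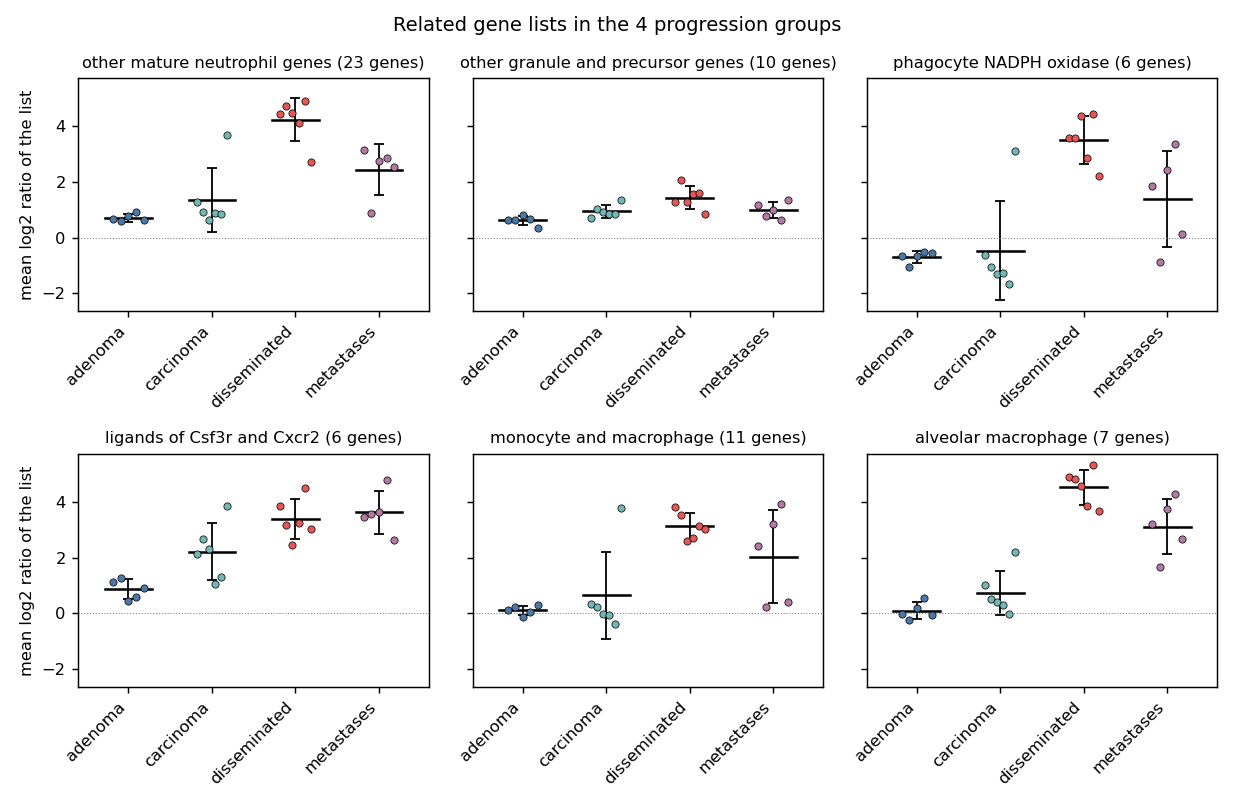
Mean log2 ratio (y axis) of 6 gene lists in each of the 22 progression samples, grouped, with bars for the mean and SD. Disseminated cells lie at 2.74 to 4.91 for the other mature neutrophil genes and at 2.59 to 3.83 for the monocyte and macrophage list, and carcinoma replicate 6 reaches 3.68 and 3.78.

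Pan-leukocyte and macrophage markers were higher in disseminated cells as well, while other leukocyte lists had fewer calls. The mean log2 ratio of 4 pan-leukocyte genes ran from -1.96 to -1.15 in adenomas and from 1.70 to 3.75 in disseminated cells. That of 11 monocyte and macrophage genes ran from -0.12 to 0.30 and from 2.59 to 3.83. That of 7 measured alveolar macrophage genes ran from -0.24 to 0.55 and from 3.69 to 5.35. In disseminated cells against adenomas, 4 of 4, 9 of 11 and 7 of 7 of these genes were called higher, among them Chil3 by 8.68 and Ear1 by 7.70. Of the B cell list 2 of 6 were called higher, of the erythroid list 2 of 3, of the lung epithelium list 3 of 5 and of the endothelium list 2 of 4. Of the T and NK cell list 1 of 9 was called higher and 1 lower, and of the eosinophil list 0 of 4 in either direction (1 of 4 had an unadjusted p below 0.05). Over all genes, 4.65% were called higher and 5.82% lower in this comparison. Ptprc, which encodes the pan-leukocyte surface protein CD45, averaged -2.74 ± 0.54 (log2 ratio, SD, n = 5) in adenomas and 2.30 ± 1.35 (SD, n = 6) in disseminated cells. All 11 monocyte and macrophage genes and 22 of the 23 other mature neutrophil genes were well above background on every array of disseminated cells, while Retnlg, Cxcr1 and Itgam were so on no array of adenomas. The eosinophil genes Prg2 and Il5ra were well above background on no array of disseminated cells.

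The luminal mammary list, which marks the epithelium that carries the oncogene, ran from 3.12 to 4.01 in adenomas and from 0.33 to 3.76 in disseminated cells, with replicate 6 the highest, and 1 of its 8 genes was called lower than in adenomas (6 of 8 had an unadjusted p below 0.05, median log2 change -1.69). Against carcinomas 4 of the 8 were called lower, with a median of -1.93. Over all genes, 5.82% were called lower against adenomas and 6.07% against carcinomas. The epithelial keratin Krt8 averaged 3.13 ± 0.60 (log2 ratio, SD, n = 5) in adenomas and 0.88 ± 2.11 (SD, n = 6) in disseminated cells. In carcinoma replicate 6 the pan-leukocyte mean was 2.18, against -2.95 to -1.83 in the other carcinomas, and its luminal mean of 2.73 was the lowest of the group. In metastases the means of the monocyte and macrophage list were 2.44, 0.21, 3.21, 3.92 and 0.42, and replicate 5, with the highest Camp and S100a9, was at 0.42. The part of other cell types in the changes of the neutrophil genes was not tested.

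In the chemotherapy experiment no neutrophil gene was called. Of the 10 genes, 0 were called by limma between residual and untreated, relapsed and untreated, and relapsed and residual tumors, against 0.0938, 0.0104 and 0.212% of all genes called. Split by direction, 0.0903, 0.00347 and 0.00347% of all genes were called higher and 0.00347, 0.00695 and 0.208% lower. At an unadjusted p below 0.05 there were 1, 1 and 2 of the 10.

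**Figure D5:**
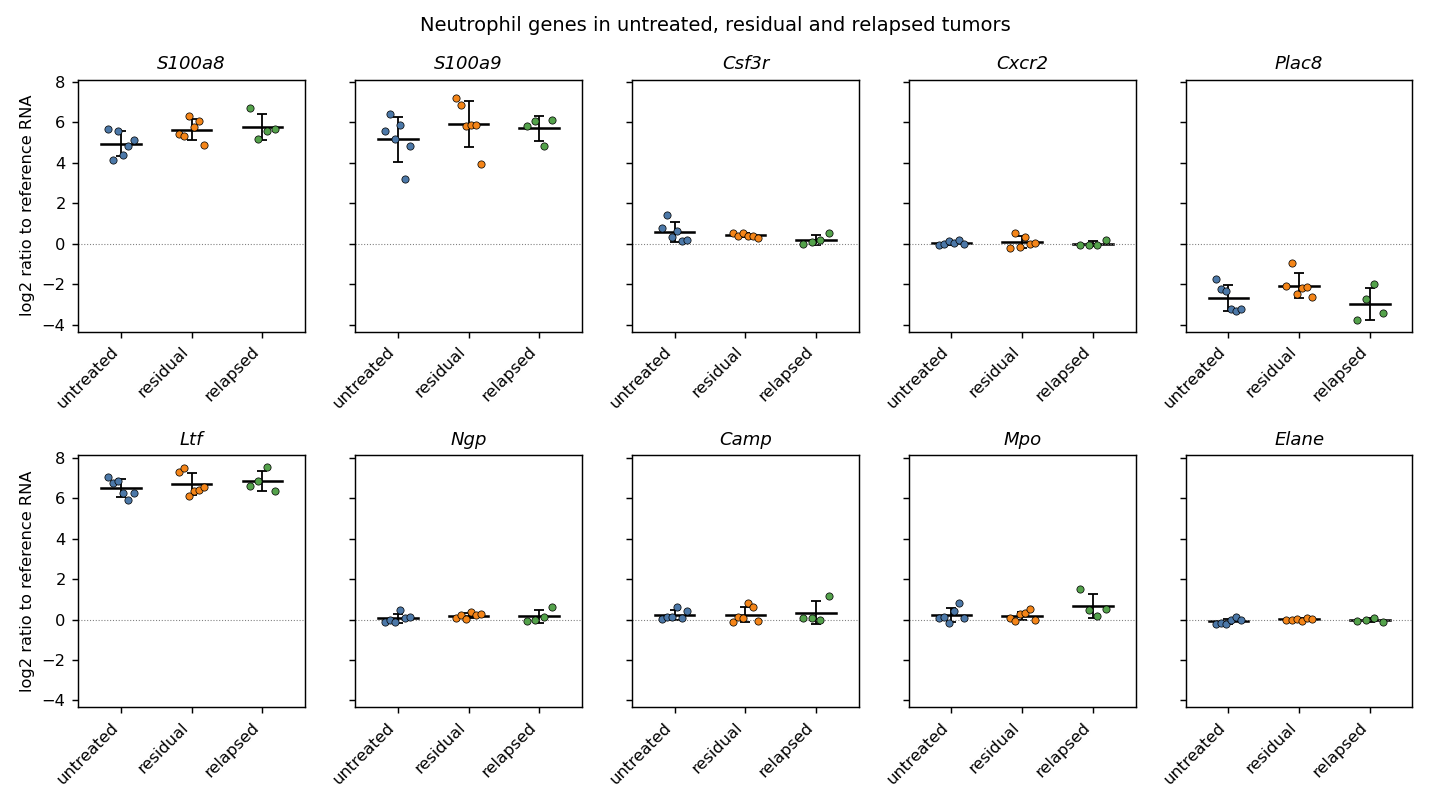
Log2 ratio to the reference RNA (y axis) of the 10 genes in untreated, residual and relapsed tumors, with 1 point per sample and bars for the mean and SD. S100a8, S100a9 and Ltf lie far above 0 in all groups, Plac8 lies below 0 in all, and the groups overlap at every gene.

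S100a8 ran from 4.13 to 5.67 with a median of 4.99 in untreated tumors, in residual tumors from 4.88 to 6.33 with a median of 5.60, and in relapsed tumors it was 6.71, 5.16, 5.56 and 5.67. S100a8 means were 4.95 ± 0.63, 5.64 ± 0.53 and 5.77 ± 0.66 (SD), and the groups overlapped. The log2 change of S100a8 was 0.68 in residual tumors (95% interval 0.01 to 1.35, adjusted p = 0.537) and 0.82 in relapsed tumors (0.07 to 1.57, adjusted p = 0.587) against untreated ones. Within slide 2, the slide that untreated and residual tumors shared, the difference was -0.28, from 2 residual arrays and 1 untreated array. On the slide of untreated and relapsed tumors it was 0.46, from 2 relapsed arrays and 1 untreated array.

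For S100a9 the means were 5.17 ± 1.11, 5.93 ± 1.13 and 5.71 ± 0.61 (SD), and S100a9 minus S100a8 did not pass in any of the 3 comparisons (exact permutation test, adjusted p = 0.916 for each). Csf3r was well above background in 3 of 6, 2 of 6 and 1 of 4 tumors. Cxcr2 and Elane were so in 0 of the 16 tumors, with log2 ratios from -0.22 to 0.54 and from -0.24 to 0.12. Ngp was detected in 0 of 6, 2 of 6 and 2 of 4, and Camp in 2 of 6, 2 of 6 and 1 of 4. These receptors and granule genes lay at or near the detection limit before and after treatment, so a difference below that limit was not detectable.

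Ltf was high throughout, with means of 6.51, 6.70 and 6.83 in untreated, residual and relapsed tumors. Mpo had means of 0.22, 0.18 and 0.66, and its log2 change from residual to relapsed tumors was 0.49 (95% interval 0.01 to 0.96, adjusted p = 0.63). Plac8 ran from -3.31 to -1.76 with a median of -2.78 in untreated and from -2.61 to -0.92 with a median of -2.14 in residual tumors, and was -3.77, -2.74, -2.0 and -3.40 in relapsed tumors. Its log2 change from residual to relapsed tumors was -0.91 (95% interval -1.74 to -0.09, adjusted p = 0.586). Of the related lists, 0 genes were called in the 3 comparisons, and the other mature neutrophil genes had median log2 changes of 0.10, -0.01 and -0.07. Values of the chemotherapy and progression experiments are not set against each other, since their RNA was amplified in different ways.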

How the data were processed

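The authors deposited the scanner output of 38 two-color Agilent arrays, with intensity values per spot from Feature Extraction 10.7.3.1 (per the file headers), the sample in Cy5, a common mouse reference in Cy3 and no dye swap. They also deposited a table of normalized log2 ratios made by the authors, used here as an alternative. Progression RNA had 2 rounds of amplification and chemotherapy RNA another kit, so each experiment was fitted alone.

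From the intensities, 43379 non-control of 45018 spots per array were background-corrected (normexp, offset 50), normalized by loess within and by quantiles between arrays of an experiment, and spots with outlier flags were left out. Of 41174 probes, 22951 were named by RefSeq accession and 18223 by the file's name, and the brightest probe stood for each of 28786 gene names. Probe positions are those of the files (mm7). limma 3.58.1 (R 4.3.3) gave changes, moderated tests and Benjamini-Hochberg adjusted p-values over all genes, with 1 model per experiment and no covariate. The limma fit was tested on simulated log2 ratios, and the permutation test on a small example with a known answer. The steps before the fit were not tested in this way. Precision is limited by the number of arrays.

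Members and gene lists were chosen with earlier results of these data known. The rule for named genes covered the 10 members and, per comparison, the 6 called genes of the related lists with the largest change. It also covered the 5 genes most correlated with S100a8 and with Ngp. Other genes of the related lists were named outside this rule, after their values were seen. Alternatives covered background correction, normalization, probe choice, dim-probe filters, slide and replicate blocks, the groups fitted, an unmoderated test and single samples left out. The labels' control, regressed and resistant tumors are called untreated, residual and relapsed. Some genes of the related lists are not reported here by name.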

Additional observations from a re-analysis of the deposited data

Results flagged for a closer look

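In 11 of 70 groups of a gene, the highest or lowest sample lay farther from the others than Dixon's test allows, where chance gives about 1 in 20. Carcinoma replicate 6 was such a sample at 4 genes, with log2 ratios of 3.92 for Csf3r, 1.26 for Cxcr2, 1.45 for Ngp and 1.50 for Plac8, all above the other carcinomas. Disseminated replicate 6 stood apart at Csf3r, where its log2 ratio of 3.22 was the lowest, and at Ltf, where 7.47 was the highest. Disseminated replicate 2 had the highest Mpo ratio, 3.31, and metastases replicate 2 the lowest Plac8 ratio, -2.69. In the chemotherapy experiment, relapsed replicate 4 was apart at Cxcr2 (0.197, not well above background) and Camp (1.18), and residual replicate 2 at Plac8 (-0.92).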

How the results depend on the processing

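Of the results tested, none reversed its direction of a called change under the alternatives run. Camp, Csf3r, Cxcr2, Ngp and Plac8 stayed called in disseminated cells against adenomas and against carcinomas under each processing alternative and with each single sample left out. Between carcinomas and adenomas, 1 member, S100a9, was called in place of 0 from the processed signals of the scanner software, with Aquantile or no normalization between arrays, with the deposited log2 ratios and with the sample channel alone, the last added after seeing the data. Between metastases and adenomas, 1 was called in place of 2 with the slide as a random block, with the replicate number as a replicate block and in an unmoderated test of the pair, and 3 with a normexp offset of 0, processed signals, median centring, the sample channel alone or the deposited ratios. With Aquantile or no normalization between arrays the 2 called were Csf3r and S100a9 in place of Csf3r and S100a8. Between metastases and disseminated cells, 3 were called in place of 6 with processed signals, 2 with a fit of only those groups and 1, Csf3r, in an unmoderated test of the pair. Between metastases and carcinomas, 1 was called with processed signals, where 14.2% of all genes were called. With processed signals 4.85% of all genes were called between carcinomas and adenomas. The shares were 21.5% between metastases and adenomas and 9.34% between metastases and disseminated cells. With a normexp offset of 0, 17% of all genes were called between metastases and adenomas. The cause of these shifts in calls was not tested. With the replicate block, 6, 7 and 5 members were called in disseminated cells against adenomas, against carcinomas and in metastases against disseminated cells. Of the pairs of one replicate number, 8 of 31 in progression and 6 of 14 in chemotherapy correlated above 0.1. Their median correlation was -0.016 in progression and 0.038 in chemotherapy, beside -0.009 and 0.008 for other pairs. These values were not tested and cannot show whether the numbers pair the samples. With single samples left out, calls ran from 6 to 7 in disseminated cells against adenomas, 5 to 7 against carcinomas (5 without disseminated replicate 3 or 5), 0 to 2 between metastases and adenomas (0 without adenoma replicate 2), 0 to 1 between metastases and carcinomas (1 without carcinoma replicate 6) and 4 to 7 between metastases and disseminated cells (4 without disseminated replicate 2 or 3 or metastases replicate 2, 3 or 4). They stayed at 0 between carcinomas and adenomas and in chemotherapy. A filter on dim probes left 9 of 10 members in progression, without Elane, and 5 in chemotherapy. The unmoderated test is a t-test in its equal-variance form. The study's methods used limma, and a t-test is named, without its form, only in legends of its supplement. Members below 0.05 in it numbered 6 in disseminated cells against adenomas, 7 against carcinomas, 6 in metastases against disseminated cells, 4 in metastases against adenomas, 5 in carcinomas against adenomas and 0 in the other comparisons. After Benjamini-Hochberg adjustment and the 2-fold threshold the counts were 6, 6, 1, 1, 0 and 0.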
